A study of Mus musculus with 2 samples.

Results

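C3 Saa3 high CAR cells are marrow mesenchymal cells that carry many transcripts of complement component C3 and of serum amyloid A3. CAR cells, the CXCL12-abundant reticular cells, are the perivascular stromal cells of bone marrow that express the leptin receptor and make the chemokine CXCL12 and stem cell factor. Cells were kept at 500 or more genes and at most 10% mitochondrial UMIs, a UMI being a tag that marks a single captured mRNA molecule. A CAR cell had at least 10 Cxcl12 UMIs, at least 1 Lepr UMI and fewer than 3 UMIs of the endothelial genes Cdh5 and Kdr together. A high cell had at least 15 UMIs of C3 and Saa3 together, fewer than 3 Cxcl13 UMIs, fewer than 5 of Wif1, Alpl and Hs3st5 together, and fewer than 10 of Ifit1, Ifit3 and Cxcl10 together. By this definition 1663 of 29558 CAR cells were high, among 41378 cells in all. The old library held 1640 of them and the adult library held 23. A low cell was any CAR cell with at most 2 C3 and Saa3 UMIs, which were 5058 old and 14929 adult cells. The thresholds use the counts of these 13 genes, so their differences between high and low cells describe the selection and are not findings.

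The study compared stroma of old mice with stroma of adult mice, both wild type and of the C57BL6 background, with 1 single-cell library per age. Marrow of long bones was digested, haematopoietic cells were depleted magnetically, and cells negative for the dead-cell dye DAPI were sorted into the 10x Chromium 3' v3.1 assay. The labels state neither the age in months nor the sex or number of mice, and whether marrow was pooled is not stated either. With 1 library per age no difference between the ages, and none between high and low cells, was tested: the 95% intervals below are exact and cover counting error only.

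C3 is the component on which all routes of complement activation converge, and its cleavage marks surfaces for uptake. Serum amyloid A proteins, haptoglobin and the LPS-binding protein belong to the acute phase response, in which interleukin-1, interleukin-6 and tumour necrosis factor act through NF-kB, STAT3 and C/EBP factors to raise secreted defence proteins. The liver is the main source of these proteins, and Saa3 is the form that mouse macrophages, adipocytes and stromal cells make outside it.

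The old library held 229917243 UMIs in 22298 barcodes and the adult library 208637421 UMIs in 25635 barcodes. The 2 libraries shared 152 barcode sequences, of which 7 belonged to old high cells and 0 to adult high cells. No doublets were removed. High cells were deeper than low cells, with a median of 10494.5 UMIs in old high cells against 6616.5 in old low cells, and 13235 in adult high cells against 7554 in adult low cells. Among old high cells, 54 (3.29%) carried UMIs of neutrophils, red cells, plasma cells or megakaryocytes above the cut-offs used (20, 50, 20 and 20 UMIs), against 141 (2.79%) of old low cells. Markers of other cell types varied in old high cells. Those of neutrophils summed to 1614 CPM (UMIs of a gene scaled to 1000000 UMIs of the cell set) in old high and 179 CPM in old low cells, of fibroblasts to 1795 CPM in old high and 638 CPM in old low cells, of red cells to 1637 CPM in old high and 2522 CPM in old low cells, and of the osteolineage to 4328 CPM in old high and 7779 CPM in old low cells. The B lineage list summed to 2952 CPM in old high and 3431 CPM in old low cells, and the plasma cell list to 423 CPM in old high and 552 CPM in old low cells. Of the 7 B lineage genes, which include the transcription factor Ebf1, 1 passed the level filter given below. That sum therefore lies mostly in 1 gene and does not measure B cell RNA as a whole. The part of RNA from other cells in the results below was not tested, except where values without such barcodes are given. The 6 T and NK cell markers summed to 0.622 CPM in old high and 2.74 CPM in old low cells, and the 8 endothelial markers to 44.7 CPM in old high and 38.1 CPM in old low cells. In the fibroblast list, which holds Dcn, the defining genes Dpt and Pi16 were at 0.430 and 0.717 CPM in old high and at 0.336 and 0.817 CPM in old low cells.

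The selection uses both genes in the name of the state, and old high cells met it mostly through C3. Of the 6 genes named as markers of the state, C3 and Saa3 were set by the selection. The others, Serpina3n, Apod, Enpp2 and Mgp, were higher in old high cells than in old low cells. C3 (ENSMUSG00000024164) was at 1757 CPM in old high and 102 CPM in old low cells, and Saa3 (ENSMUSG00000040026) at 189 CPM in old high and 1.20 CPM in old low cells. Saa3, however, was absent from most of the cells: 1375 of the 1640 old high cells (83.8%) had 0 Saa3 UMIs, 119 had 1 to 4, and 146 (8.90%) had 5 or more. The tenth of old high cells richest in Saa3 held 96.1% of all Saa3 UMIs. C3 alone reached 15 UMIs in 1574 of the 1640 cells (96.0%). Nearly all old high cells were therefore selected through C3 and few through Saa3.

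Among the adult high cells none was high in both C3 and Saa3. Of the 23 adult high cells, 20 had 15 to 34 C3 UMIs, and 1 of these had a single Saa3 UMI. The other 3 had 31 to 60 Saa3 UMIs and 0 C3 UMIs. In the old library 53 cells had 15 or more UMIs of each gene, 32 had at least 15 Saa3 UMIs with 1 to 14 C3 UMIs, and 0 lacked C3.

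**Figure D1:**
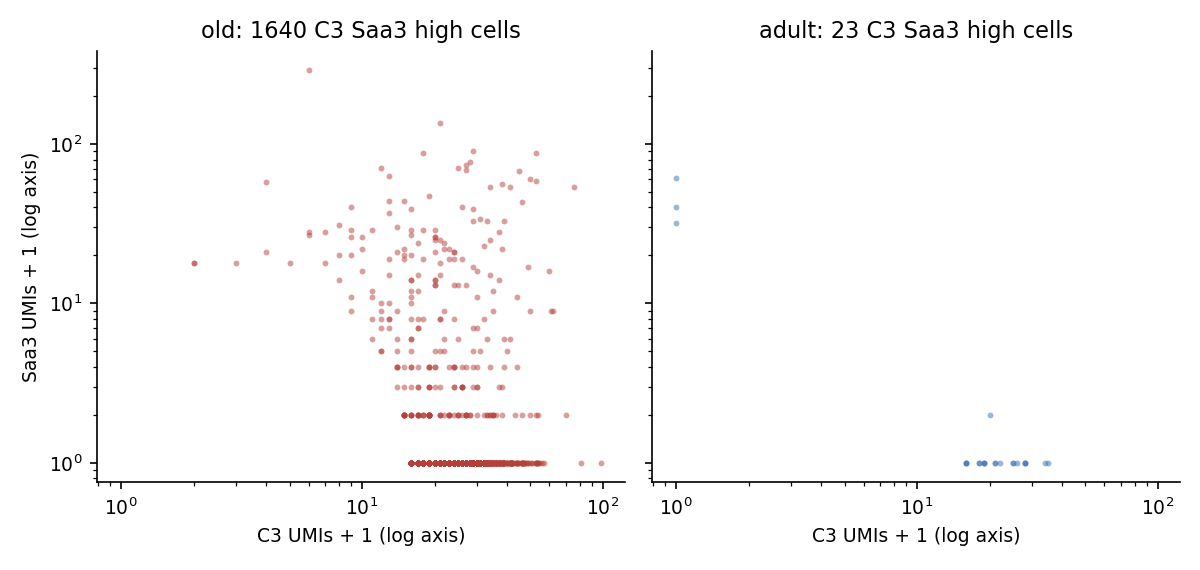
C3 UMIs (horizontal) and Saa3 UMIs (vertical), each plus 1 on log axes, in every C3 Saa3 high CAR cell, for the old library on the left (1640 cells) and the adult library on the right (23 cells); each point is a cell. Most old points lie on the bottom line of 0 Saa3 UMIs, and the 3 adult cells with many Saa3 UMIs lie on the left edge at 0 C3 UMIs.

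Across old CAR cells that carried none of the excluded states, Saa3 became more frequent as C3 increased. Cells with 5 or more Saa3 UMIs made up 0.0615% (0.00156% to 0.342%) of the 1625 cells with 0 C3 UMIs and 0.510% (0.255% to 0.910%) of the 2158 cells with 3 to 5. They made up 2.08% (1.38% to 3.02%) of the 1296 cells with 10 to 14 C3 UMIs and 11.5% (7.92% to 16.1%) of the 260 cells with 30 or more. The median depth of these classes was also higher, with 5546 UMIs per cell at 0 C3 UMIs and 13604 at 30 or more, and its part in the trend was not tested. In the adult library 6 of 8476 cells with 0 C3 UMIs had 5 or more Saa3 UMIs (0.0708%, 0.0260% to 0.154%), and 0 of the 20 with 15 or more C3 UMIs did.

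Upstream sequences are shown for C3 and Saa3, which define the state, and for Serpina3n, a further marker of the state. They are the 250 bases before the start of each gene in RefSeq on GRCm38.p6, an earlier build than the one the reads were counted on. They lie at chr17:57228137-57228386 on the minus strand for C3, chr7:46715677-46715926 on the minus strand for Saa3 and chr12:104406458-104406707 on the plus strand for Serpina3n. Each is written 5′ to 3′ in the direction of transcription, with matches on either strand to TTGCNNAA, a core of sites bound by C/EBP factors, in capitals.
C3: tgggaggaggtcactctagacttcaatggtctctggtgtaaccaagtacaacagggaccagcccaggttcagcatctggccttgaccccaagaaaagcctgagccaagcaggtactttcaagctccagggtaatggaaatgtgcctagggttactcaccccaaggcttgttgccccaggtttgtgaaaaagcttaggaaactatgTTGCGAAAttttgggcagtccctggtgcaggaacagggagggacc
Saa3: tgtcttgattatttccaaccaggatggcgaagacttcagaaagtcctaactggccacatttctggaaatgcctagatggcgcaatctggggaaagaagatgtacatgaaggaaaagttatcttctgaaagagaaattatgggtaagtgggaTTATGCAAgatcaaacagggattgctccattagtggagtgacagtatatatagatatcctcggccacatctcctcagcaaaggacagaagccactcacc
Serpina3n: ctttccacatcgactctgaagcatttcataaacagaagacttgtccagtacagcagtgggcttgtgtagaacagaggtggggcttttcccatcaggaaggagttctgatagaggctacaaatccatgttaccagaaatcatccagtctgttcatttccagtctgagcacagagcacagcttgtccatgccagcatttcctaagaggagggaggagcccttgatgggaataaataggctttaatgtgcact
The C3 window held 1 match, which begins 45 bases before the gene start, and the Saa3 window held 1 match on the opposite strand, which begins 99 bases before it. The Serpina3n window held 0. A match to these letters occurs in 3142 of 32851 promoter windows of this length (9.56%). The NF-kB consensus, found in 3.90% of windows, and the STAT motif TTCNNNGAA, found in 7.02%, had 0 matches in the 3 windows. These are matches of letters, not sites shown to be bound.

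C3 Saa3 high cells made up 12.2% of CAR cells in the old library (95% interval 11.6% to 12.7%) and 0.143% in the adult library (0.0906% to 0.214%), a ratio of 85.3. The whole distribution of C3 and Saa3 UMIs lay higher in the old library. Cells with 0 to 2 UMIs were 37.6% of old and 92.7% of adult CAR cells, and cells of 3 to 14 UMIs without an excluded state were 39.0% of old and 5.20% of adult CAR cells. The 15-UMI threshold cut through a continuous distribution in the old library: the 449 old cells just inside it, with 15 to 17 UMIs, had 6676 CPM of Mgp and 171 CPM of Apod, and the 674 just outside it, with 12 to 14 UMIs, had 5723 CPM of Mgp and 115 CPM of Apod. When each cell was thinned to 5000 UMIs and 10 or more C3 and Saa3 UMIs were required, the share was 10.2% of 11007 old cells (1121 cells) and 0.112% of 12448 adult cells (14 cells). The thinning left out 45 of 1640 old and 2 of 23 adult high cells as too shallow. The selection also removed 433 of 2073 old cells and 12 of 35 adult cells that passed 15 UMIs, 291 of the old ones for Cxcl13.

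**Figure D2:**
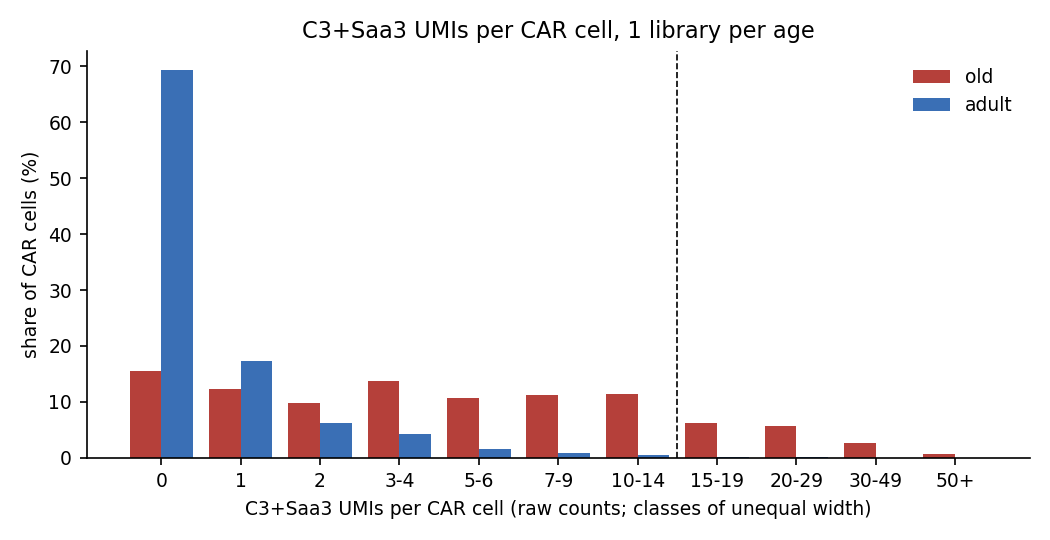
Share of CAR cells (vertical, %) in classes of C3 and Saa3 UMIs per cell (horizontal, classes of unequal width) in the old and adult libraries, before the other states were left out; the dashed line is the threshold of 15 UMIs. In the old library 15.4% of CAR cells had 0 UMIs, against 69.3% in the adult library.

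Within the old library Hp and Lbp of the acute phase, Il1rn, the lipid genes Apod, Enpp2 and Plpp1, and the matrix genes Mgp and Dcn were higher in high cells, and Tnc, Spp1, Kcnk2 and Ncam1 were lower. A gene was counted where its mean over both sets was at least 25 CPM with at least 50 UMIs, and it was called where the CPM of the summed UMIs differed at least 2-fold. Of 6257 such genes, 59 (0.943%) were called higher and 64 (1.02%) were called lower in old high cells, 123 (1.97%) in all. The median log2 ratio over all of them was -0.03.

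The number of calls changed with how the sets were matched. Without barcodes that carried other cell types, 55 of 6332 genes (0.869%) were called higher and 76 (1.2%) lower in old high cells, 131 (2.07%) in all. In cells of 5000 to 15000 UMIs, 75 of 6218 (1.21%) were called higher and 103 (1.66%) lower, 178 (2.86%) in all. With Cxcl13, osteogenic and interferon cells left out of the low set as they are from the high set, 54 of 6233 (0.866%) were called higher but 24 (0.385%) lower, 78 (1.25%) in all. With all of these together, 62 of 6199 (1%) were called higher and 48 (0.774%) lower, 110 (1.77%) in all.

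Of 17 acute phase genes 5 passed the level filter, all 5 were above 0, 4 were called higher, and their median log2 ratio was 1.71. The 4 include Saa3, which the selection uses, and Lcn2, which lay mostly in barcodes with neutrophil RNA, so that Hp and Lbp are the calls among the other 3. Hp encodes haptoglobin, which binds free haemoglobin, and was at 4225 CPM in old high and 1287 CPM in old low cells, a log2 ratio of 1.71 (1.70 to 1.73). Lbp, which presents bacterial lipopolysaccharide to its receptor, was at 287 CPM in old high and 102 CPM in old low cells (2.83-fold). Hp was present in nearly every cell of the state, with a median of 43 UMIs in old high and 7 UMIs in old low cells. Cp, ceruloplasmin, was at 1455 CPM in old high and 1124 CPM in old low cells (0.37) and was not called. Saa1 and Saa2, which share sequence with Saa3 and whose reads counting could split, were at 2.06 and 0.765 CPM in old high cells.

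The call of Lcn2, lipocalin 2, came from few barcodes. It was at 69.8 CPM in old high and 3.08 CPM in old low cells, but 90.7% of its UMIs in high cells sat in 9 barcodes that also carried neutrophil transcripts. Without barcodes of that kind it was at 6.52 CPM in old high and 1.47 CPM in old low cells. The neutrophil genes themselves showed the same arrangement: 98.6% of Ngp UMIs and 98.4% of S100a9 UMIs in old high cells lay in these 9 barcodes, which held 0 Saa3 UMIs. Of 16 free RNA genes of blood cells past the filter, 6 were called higher and the other 10 were below 0. The markers of the state did not sit there, since 0.594% of Serpina3n, 0.953% of Apod and 0.381% of Hp UMIs did.

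Complement genes other than C3 differed less. Of 24 complement genes 9 passed the filter, 7 of these were above 0, and C3 alone was called. The C1 proteases start the classical pathway: C1s1 was at 497 CPM in old high and 257 CPM in old low cells (log2 ratio 0.95), and C1ra at 293 CPM in old high and 163 CPM in old low cells (0.85). Their inhibitor Serping1 was at 2658 CPM in old high and 1471 CPM in old low cells (0.85), and C4b at 602 CPM in old high and 392 CPM in old low cells (0.62). Cfb, which forms the C3-cleaving enzyme of the alternative pathway, did not pass the filter, at 17.5 CPM in old high and 8.79 CPM in old low cells.

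Serpina3n, a secreted inhibitor of serine proteases, was at 72.4 CPM in old high and 10.2 CPM in old low cells, a log2 ratio of 2.83 (2.67 to 2.99). It was seen in 41.4% of old high and 6.27% of old low cells, and in 0 of 136 old endothelial barcodes without Lepr, which allows up to 2.68% by the exact interval. Thinned to 5000 UMIs, the shares were 26.1% of old high and 4.37% of old low cells. The gene belongs to a cluster of close copies, and reads could be split among them: Serpina3g was at 236 CPM in old high and 160 CPM in old low cells. Of 13 antiproteases past the filter, 9 were above 0, 2 were called higher and 0 lower, and their median was 0.22.

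Genes of lipid carriage and of lysophosphatidic acid (LPA), a signalling lipid, were all above 0. Of 10 past the filter, 3 were called and the median log2 ratio was 0.44. Apod, a lipid-binding lipocalin, was at 181 CPM in old high and 21.5 CPM in old low cells, a log2 ratio of 3.07 (2.97 to 3.18), with UMIs in 62.1% of old high, 11.3% of old low and 4.41% of old endothelial cells. Enpp2 encodes autotaxin, the enzyme that makes LPA, and was at 159 CPM in old high and 45.8 CPM in old low cells (1.80, 1.72 to 1.88). Plpp1, a phosphatase that degrades LPA, was at 132 CPM in old high and 40.7 CPM in old low cells (1.69), and the receptor Lpar1 at 201 CPM in old high and 133 CPM in old low cells (0.60). The gene for making the lipid and the gene for breaking it down were thus both higher in the same set. Endothelial cells had more Plpp1 than either, at 474 CPM.

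Receptors and regulators of the acute phase were shifted together by less than the 2-fold cut-off, and Il1rn was the exception. Il1rn, the secreted antagonist of the interleukin-1 receptor, was at 364 CPM in old high and 101 CPM in old low cells (log2 ratio 1.85, 1.79 to 1.90). Its target Il1r1 was at 598 CPM in old high and 339 CPM in old low cells (0.82), the transcription factor Cebpd at 496 CPM in old high and 260 CPM in old low cells (0.93), and Osmr, the oncostatin M receptor, at 270 CPM in old high and 158 CPM in old low cells (0.77). Of 17 genes in this list past the filter 15 were above 0, with a median of 0.45. All 14 NF-kB genes past the filter were above 0 as well, with a median of 0.37 and 0 called. The highest were the feedback inhibitors Tnip1 (0.96) and Nfkbie (0.89) and the ubiquitin ligase Birc3 (0.87).

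Chemokines were few. Of 22 chemokine and cytokine genes 5 passed the filter, and Ccl2, which attracts monocytes, was called, at 121 CPM in old high and 41.3 CPM in old low cells (log2 ratio 1.55, 1.46 to 1.64). It was present in 27.0% of old high and 10.5% of old low cells. Cxcl16 was at 37.0 CPM in old high and 18.6 CPM in old low cells (0.99), and Ccl19, which guides CCR7-bearing lymphocytes and dendritic cells, at 271 CPM in old high and 146 CPM in old low cells (0.90). The cytokines Il6, Il1b and Tnf, which drive the acute phase, were at 2.58, 0.765 and 0.669 CPM in old high cells. Interferon genes were mostly below 0, in 22 of 25 past the filter, and 4 were called lower, with a median of -0.39. The selection removes interferon cells from the high set and leaves 85 of them in the low set. With the low set matched, 21 of 24 were below 0 and 3 were called lower, with a median of -0.36. Among those 4, Ifit1, Ifit3 and Cxcl10 had been used to remove cells from the high set, and Isg15, a ubiquitin-like protein, was at 36.5 CPM in old high and 84.2 CPM in old low cells (-1.21), and at 78.3 CPM in the matched low cells (-1.10).

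Further genes among the 15 highest had other roles. Mgp encodes matrix Gla protein, an inhibitor of calcification, and was at 7513 CPM in old high and 2189 CPM in old low cells (log2 ratio 1.78), with a median of 72 UMIs in old high and 9 UMIs in old low cells. Dcn, the proteoglycan decorin, was at 1719 CPM in old high and 538 CPM in old low cells (1.68). Cybb, the catalytic subunit of the phagocyte NADPH oxidase, was at 233 CPM in old high and 51.3 CPM in old low cells (2.18), in 69.6% of old high and 18.3% of old low cells. Thinned to 5000 UMIs, the Cybb shares were 52.5% of old high and 13.7% of old low cells. Ifitm1 (2.22), the histone deacetylase gene Hdac9 (1.67), Cyyr1 (1.49) and Ugcg (1.47), whose product makes glucosylceramide, were also among them. Cybb is also a gene of macrophages, and the 8 monocyte and macrophage markers summed to 220 CPM in old high and 234 CPM in old low cells. Of these sums Ly6c2 alone was 114 CPM in old high and 183 CPM in old low cells. Of the Lyz2 UMIs in old high cells, 93.4% lay in the 9 barcodes with neutrophil RNA. The sums therefore do not measure macrophage RNA as a whole, and its part in the Cybb value was not tested. All 15 genes kept their direction under the 13 alternatives in processing, and the ratio of Cybb was 2.93 in cells of 5000 to 15000 UMIs.

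**Figure D3:**
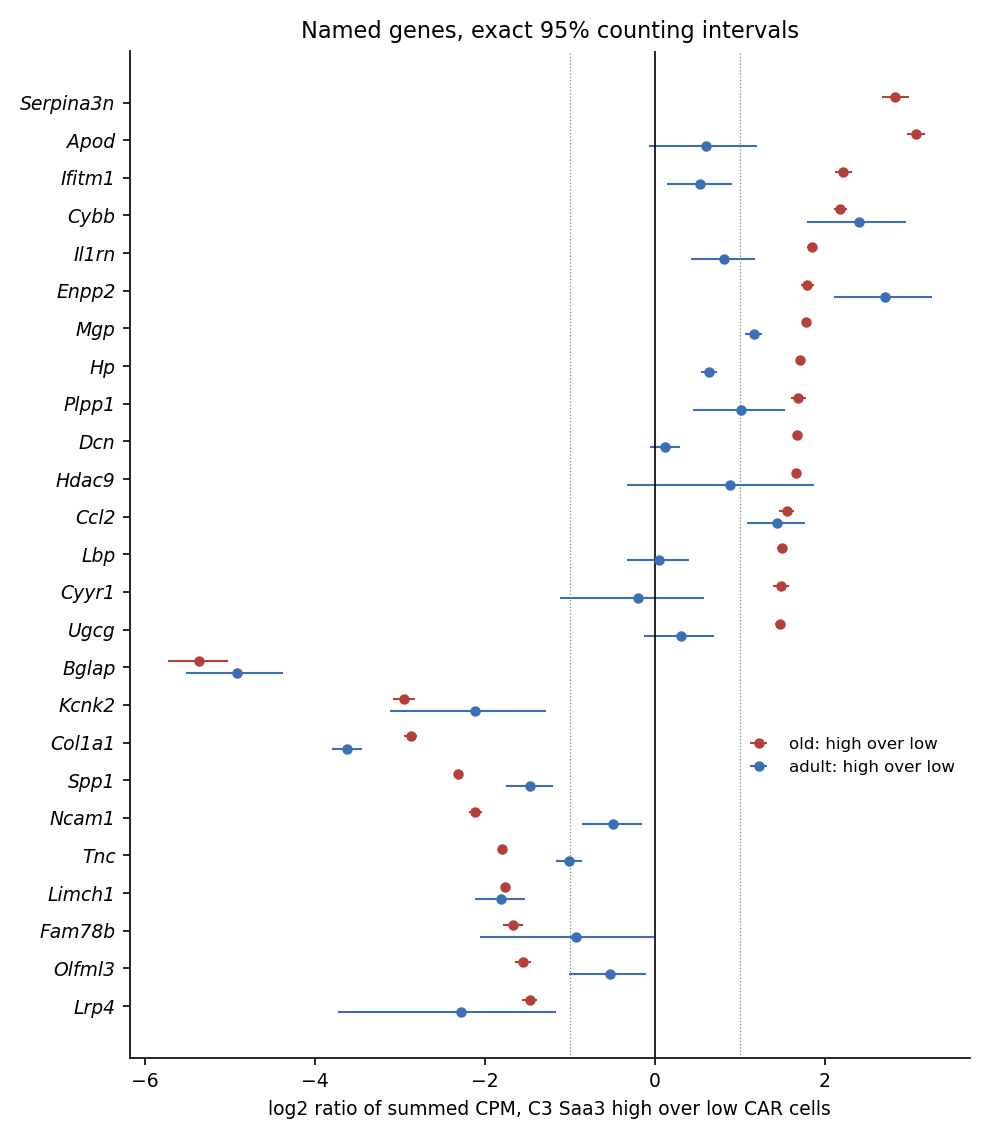
Log2 ratio (horizontal) of CPM in C3 Saa3 high over low CAR cells for Serpina3n, 14 of the 15 highest and the 10 lowest genes of the old library (rows), with exact 95% counting intervals; old points lie above adult points in each row, and dotted lines mark 2-fold. Adult high cells had 0 Serpina3n UMIs, so no adult point is drawn for it. Among the higher genes Enpp2, Cybb, Mgp, Plpp1 and Ccl2 lay past 2-fold in both libraries. For Plpp1, 36.7% of its 30 adult high UMIs were in 1 cell. Apod, Ifitm1, Il1rn, Hp, Hdac9, Dcn and Lbp lay past 2-fold in the old library alone.

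Among the genes lower in old high cells were those of bone-forming cells, whose ratios depended on the low set. All 17 osteogenic genes past the filter were below 0 and 8 were called, of 64 genes called lower in all, but the selection removes cells with Wif1, Alpl and Hs3st5 UMIs from the high set and not from the low set, where 19.9% of cells carried an excluded state. Bglap, osteocalcin, was at 3.35 CPM in old high and 138 CPM in old low cells (log2 ratio -5.36), and Col1a1, a chain of type I collagen, at 78.9 CPM in old high and 578 CPM in old low cells (-2.87). In the low set 10 of 5058 cells held 83.3% of Bglap and 74.9% of Col1a1 UMIs. With the same states left out of both sets, Bglap was at 14.1 CPM in old low cells (-2.08) and Col1a1 at 110 CPM (-0.48), and 1 of 13 osteogenic genes was called.

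Other lower genes kept a difference under that choice. Tnc, the matrix glycoprotein tenascin C, was at 654 CPM in old high and 2271 CPM in old low cells (log2 ratio -1.80), and at 1432 CPM in low cells without the other states (-1.13). The corresponding ratios were -2.31 and -1.54 for Spp1 (osteopontin), -2.95 and -1.06 for the potassium channel Kcnk2, and -2.11 and -1.05 for the adhesion molecule Ncam1. They were -1.77 and -0.91 for Limch1, -1.55 and -0.76 for Olfml3, -1.66 and -0.25 for Fam78b, and -1.47 and -0.23 for Lrp4. Only Tnc, Spp1, Kcnk2, Ncam1 and Bglap among the 10 lowest were therefore past 2-fold under both definitions of the low set. Bglap did not pass the level filter with the matched low set. For Spp1, 10 of the 5058 old low cells held 30.8% of its UMIs. In old CAR cells without other states, Spp1 was at 254 CPM at 20 to 29 C3 and Saa3 UMIs. It was at 604 CPM at 30 or more.

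Genes of CAR identity had a median near 0. Kitl, stem cell factor, was at 3837 CPM in old high and 3281 CPM in old low cells (log2 ratio 0.23), and the transcription factor Ebf3 at 1710.5 CPM in old high and 2209.8 CPM in old low cells (-0.37). Among 21 identity genes the median was 0.12 and Hp alone was called. Niche factors were mostly below 0, in 16 of 19, with a median of -0.29, and 3 were called lower (Bmp4, Spp1 and the selection gene Cxcl13). Il7, which supports lymphoid progenitors, was at 76.6 CPM in old high and 142 CPM in old low cells (-0.89), and Bmp4 at 65.7 CPM in old high and 152 CPM in old low cells (-1.21). All 7 cell cycle genes past the filter were below 0, at a median of -0.30. Collagens and matrix genes were mixed, with 16 of 28 above 0 and 12 below, 2 called higher and 3 called lower.

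**Figure D4:**
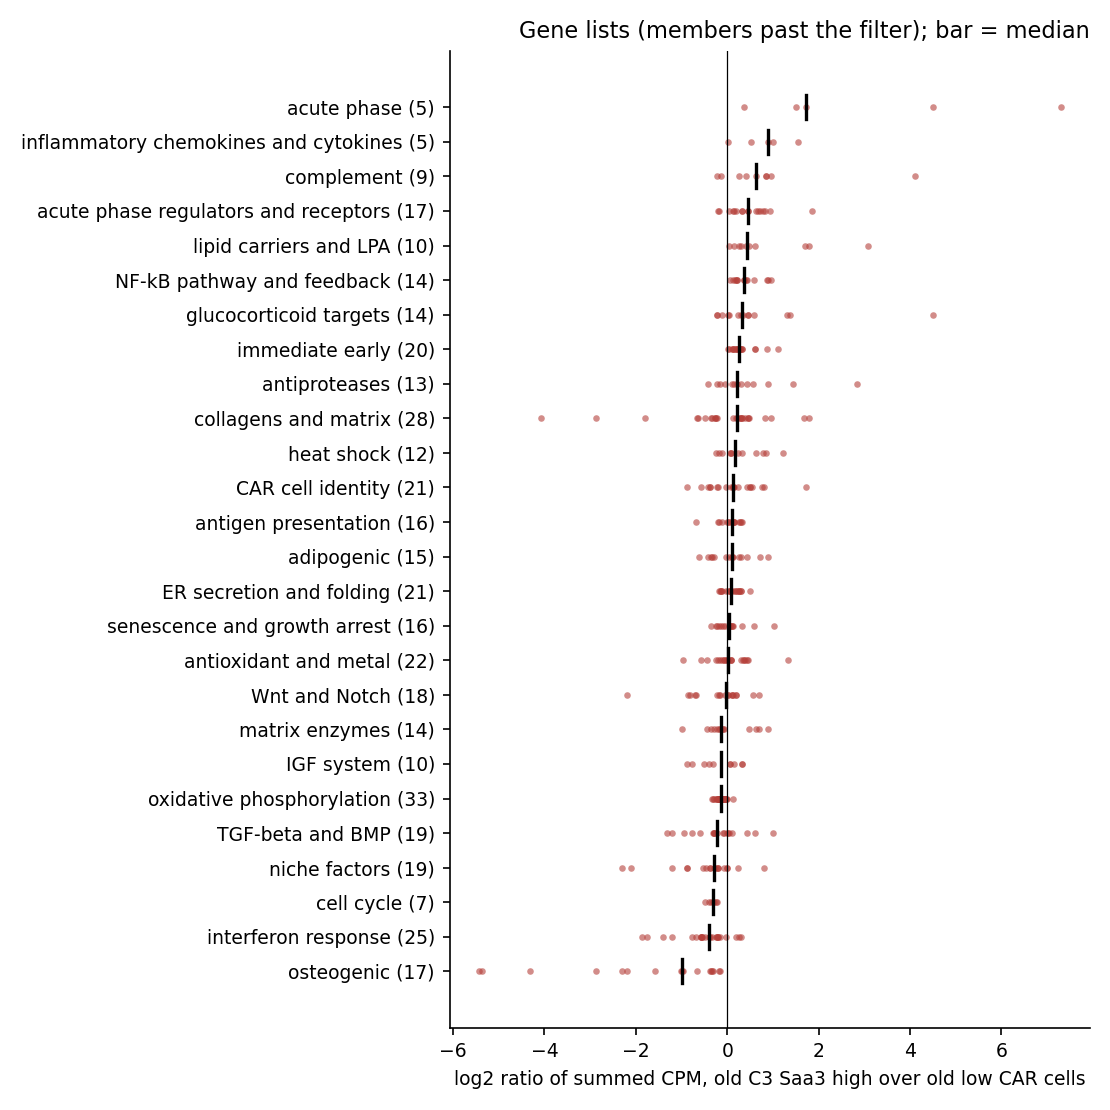
Log2 ratio (horizontal) of CPM in old high over old low cells for the members of each gene list (rows) that passed the level filter, with their number in brackets and free RNA genes left out; each point is a gene and each bar the median of the list. The acute phase median of 1.71 includes the selection gene Saa3 and Lcn2, and the osteogenic median of -0.98 was -0.31 with the low set matched, against -0.03 over all genes.

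Genes of the state changed step by step with C3 and Saa3 in the old library. Among old CAR cells without the other states, grouped by their C3 and Saa3 UMIs in 8 classes, Mgp was at 2171 CPM at 0 UMIs, 3489 CPM at 3 to 5, 5692 CPM at 10 to 14 and 8556 CPM at 30 or more. Hp was at 1132 CPM in the lowest and 5114 CPM in the highest class, and Serpina3n at 10.1 CPM in the lowest and 77.3 CPM in the highest. Both increased at every step, as did Enpp2, Il1rn, Gpx3 and Dcn. Apod and Cybb each had 1 step down, between 15 to 19 and 20 to 29 UMIs. In the other direction Tnc was at 1633 CPM in the lowest and 604 CPM in the highest class and decreased at every step. Of the CAR genes, Kitl stayed between 3667 and 3908 CPM, but Ebf3 was at 2504 CPM in the lowest and 1503 CPM in the highest class. The selection genes Cxcl12 and Lepr were at 7141 and 2494 CPM in the lowest class and at 5533 and 2251 CPM in the highest. Median depth changed too, with 5547 UMIs per cell at 0 and 12582 at 30 or more, and its part in these steps was not tested. In the adult library the classes ended at 10 to 14 UMIs, with 51 cells. Hp, Gpx3 and Il1rn increased at every step there too. Mgp, however, was at 1335 CPM at 0 and 1289 CPM at 10 to 14 UMIs, and Apod at 58.3 and 40.2 CPM. Enpp2 was at 7.85 and 14.9 CPM, and Serpina3n at 1.02 and 1.49 CPM, the latter from 1 UMI.

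**Figure D5:**
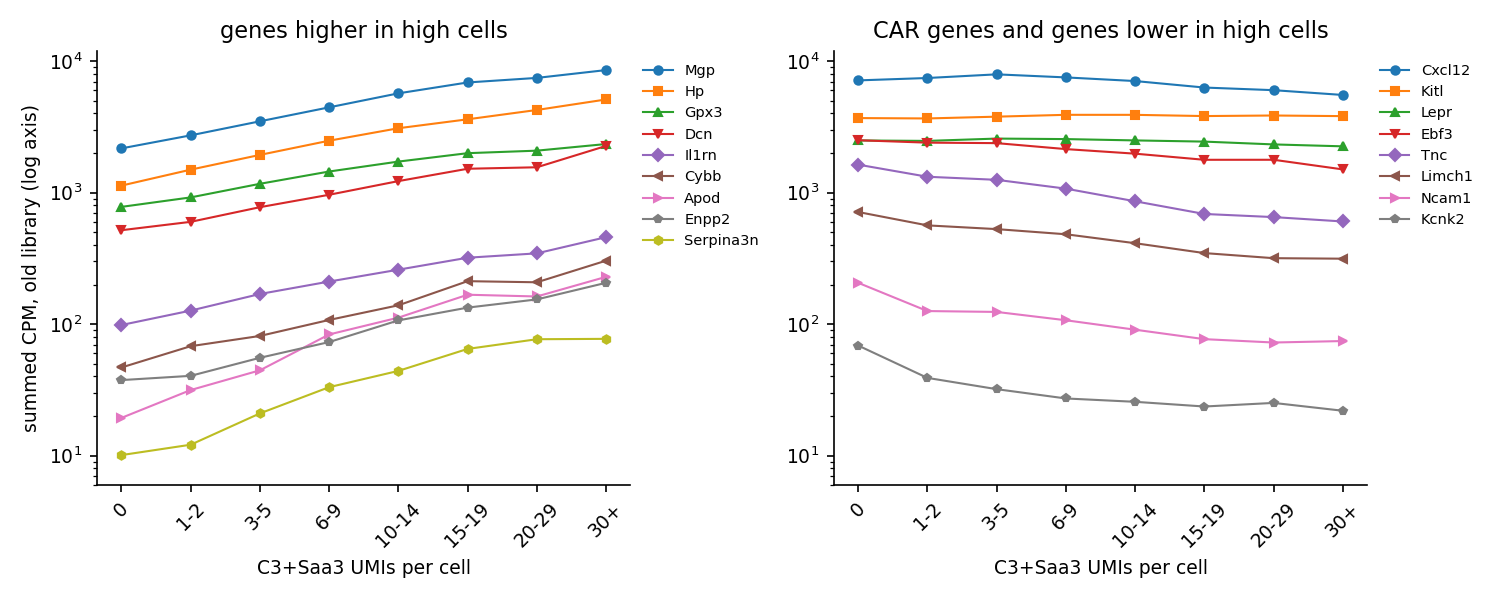
Summed CPM on a log axis (vertical) of genes higher in high cells (left) and of CAR genes and genes lower in high cells (right), across 8 classes of C3 and Saa3 UMIs per cell (horizontal) in old CAR cells without other states; each point sums a class of 338 to 2447 cells. Mgp, Hp and Serpina3n increase at every step, Tnc decreases at every step, and Kitl stays level. Ebf3, Cxcl12 and Lepr are lower in the highest class than in the lowest.

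The genes whose UMIs ranked most like C3 and Saa3 across 11007 old CAR cells, each thinned to 5000 UMIs, were Gpx3 (Spearman's rho 0.479), Hp (0.460), Mgp (0.422), Serping1 (0.406), Plac9 (0.353), Tmsb4x (0.341), C1s1 (0.331), Dcn (0.316), Apod (0.311) and Cybb (0.307). Among 6631 genes the median rho was 0.00188 and the 95th percentile 0.0892. The cells share 1 library and are not replicates, so these values are a description. Gpx3, a secreted glutathione peroxidase, was at 2116 CPM in old high and 839 CPM in old low cells (log2 ratio 1.33). The most negative rho was that of Tnc, at -0.331.

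In the adult library the same comparison rested on 23 cells and 318466 UMIs. Of 6130 genes, 171 (2.79%) were called higher and 187 (3.05%) lower in adult high cells, 358 (5.84%) in all. Of the 59 genes called higher in the old library, 39 had a ratio above 0 in the adult library and 18 were called there, while 5 had 0 UMIs in adult high cells. Of the 64 called lower, 54 were below 0 and 29 were called. Both counts include genes of the selection, such as C3, Saa3, Cxcl13, Ifit1, Ifit3 and Cxcl10, which the selection itself moves in both libraries. The median log2 ratio over all 6130 adult genes was 0.04. The counts are therefore a description and not a measure of agreement. The genes called higher in the old library had a median of 22 UMIs in the adult high cells together, and those called lower a median of 11.

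Several markers of the old state were higher in adult high cells too. Enpp2 was at 84.8 CPM in adult high and 12.9 CPM in adult low cells (log2 ratio 2.71, 2.11 to 3.26), with 33.3% of its 27 UMIs in 1 cell, Cybb at 81.6 CPM in adult high and 15.4 CPM in adult low cells (2.41, 1.79 to 2.96) and Ccl2 at 232 CPM in adult high and 85.8 CPM in adult low cells (1.44, 1.09 to 1.77), with 37.8% of its 74 UMIs in 1 cell. Mgp was at 2559 CPM in adult high and 1140.5 CPM in adult low cells (1.17), with 35.3% of its UMIs in 1 of the 23 cells. Others differed less than their counting error or little more. Apod was at 69.1 CPM in adult high and 45.4 CPM in adult low cells (0.61, -0.07 to 1.21), Lbp at 204 CPM in adult high and 197 CPM in adult low cells (0.05, -0.33 to 0.40) and Dcn at 842 CPM in adult high and 772 CPM in adult low cells (0.12, -0.05 to 0.30). Serpina3n had 0 UMIs in adult high cells and 0.848 CPM in adult low cells. With 318466 UMIs in the set, the 3 counts given to a 0 correspond to 9.42 CPM. A level below that could have been missed. The difference between the libraries in these ratios was not tested.

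Adult genes were ranked at 100 or more CPM and 100 or more UMIs in the higher set. Their highest ratios lay in other genes, partly in single cells. Genes with fewer than 100 UMIs in adult high cells, such as Enpp2 and Cybb, were not ranked among the highest. Zfpm2, a cofactor of GATA factors, was at 474 CPM in adult high and 116 CPM in adult low cells (log2 ratio 2.03), and Phex, an endopeptidase of phosphate control, at 330 CPM in adult high and 87.7 CPM in adult low cells (1.91). Col3a1, a chain of type III collagen, was at 1036 CPM in adult high and 280 CPM in adult low cells (1.89) and occurred in 20 of the 23. Of the UMIs of Fabp4 (1.83), a fatty acid carrier, 63.2% lay in 1 adult high cell, and of those of the chemokine Cxcl9 (1.75), 58.9% did. The lowest were Cadm1 (-5.12, from 1 UMI in adult high cells, interval -10.43 to -2.64), Col2a1 (-4.93), Bglap (-4.91), Bglap2 (-4.85), which shares reads with Bglap, and Fat3 (-4.24). In the adult low set 25.7% of cells carried an excluded state, and without them the ratios were -3.14 for Cadm1, -4.00 for Col2a1, -3.27 for Bglap, -3.17 for Bglap2 and -1.37 for Fat3.

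Old high cells were then set against adult high cells. Of 6145 genes, 288 (4.69%) were called higher and 249 (4.05%) lower in old high cells, 537 (8.74%) in all, and the same contrast in low cells called 134 of 6308 (2.12%) higher and 157 (2.49%) lower in old low cells, 291 (4.61%) in all. Mgp was at 7513 CPM in old high and 2559 CPM in adult high cells (log2 ratio 1.55), and at 2189 CPM in old low and 1140.5 CPM in adult low cells (0.94). Apod was at 181 CPM in old high and 69.1 CPM in adult high cells (1.39), but at 21.5 CPM in old low and 45.4 CPM in adult low cells (-1.08). Serpina3n was at least 7.69-fold higher in old high than in adult high cells, taking 3 counts for the 0 of the adult set, and was at 10.2 CPM in old low and 0.848 CPM in adult low cells (3.59). C3, which the selection sets, was at 1757 CPM in old high and 1363 CPM in adult high cells.

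Most of the genes farthest apart between old and adult high cells were also apart between low cells. Grm7, a glutamate receptor gene, was at 367 CPM in old high and 15.7 CPM in adult high cells (log2 ratio 4.55), and at 323 CPM in old low and 18.6 CPM in adult low cells (4.12). Hdac9 was at 338 CPM in old high and 25.1 CPM in adult high cells (3.75), against a ratio of 2.97 in low cells, and Fndc1 at 106 CPM in old high and 6.28 CPM in adult high cells, from 2 adult UMIs (4.08, 2.22 to 7.12), against 2.55 in low cells. Ank3 (4.35 in high and 1.19 in low cells) and Hspa1b (4.14 in high and 1.09 in low cells), whose reads can be split with Hspa1a, had 8 and 2 adult UMIs. Among the lower genes Col3a1 had ratios of -3.67 in high and -2.74 in low cells, Col1a1 -3.39 and -4.14, Ptn -2.26 and -2.69, Id3 -2.05 and -1.85, Fabp4 -2.92 and -1.98, Igf1 -2.59 and -1.38, and Slc24a3 -2.00 and -0.89. Cxcl9 was at 188 CPM in old high and 757 CPM in adult high cells (-2.01), where 1 adult cell holds most of its UMIs, against -0.29 in low cells.

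RNA of blood cells moved with the age of the library. Of 16 genes of the free RNA list past the filter, 13 were called higher in old high than in adult high cells. Igkc, an immunoglobulin light chain of B and plasma cells, was at 17098 CPM in old high cells and had 0 UMIs in adult high cells. Ly6k, Ly6c2 and Car2, which are among the 8 highest genes of the age contrast, had 135, 114 and 128 CPM in old high cells and 0, 0 and 9.42 CPM in adult high cells. In old endothelial barcodes without Lepr they were at 390, 348 and 146 CPM, at or above their level in high cells, whereas Grm7 was at 8.71 CPM and Fndc1 had 0 UMIs there. The part of free RNA in these values was not tested.

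Old high cells were also compared by their Saa3. The 146 cells with 5 or more Saa3 UMIs were set against the 1375 with 0, a split chosen after the values were seen, as were the genes named from it. C3 was at 1647 CPM in cells with Saa3 and 1779 CPM in cells without, a description only, since a cell without Saa3 needs 15 C3 UMIs to be selected and a cell with Saa3 needs fewer. Mgp was at 9627 CPM with and 7332 CPM without, Hp at 5885 CPM with and 3994 CPM without, and Serpina3n at 60.6 CPM with and 73.9 CPM without. Of 6170 genes, 45 (0.729%) were called higher and 43 (0.697%) lower in cells with Saa3, 88 (1.43%) in all. Prg4, lubricin, was at 121 CPM with and 27.8 CPM without Saa3 (log2 ratio 2.12), Spp1 at 1071 CPM with and 323 CPM without (1.73), and H1f5, a linker histone, at 146 CPM with and 35.5 CPM without (2.04). Igfbp3, which binds insulin-like growth factors, was at 22.5 CPM with and 122 CPM without Saa3 (-2.44), Igf1 at 66.0 CPM with and 186 CPM without (-1.49), Unc5c at 69.7 CPM with and 216 CPM without (-1.63) and Grm7 at 151 CPM with and 402 CPM without (-1.41). Red cell genes were higher as well, Car1 at 174 CPM with and 66.6 CPM without Saa3, beside a lower median depth of 9443 UMIs with and 10598 without; the part of red cell RNA and depth in these ratios was not tested.

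The 3 CAR states that the selection leaves out carried some of the same genes in the old library. C3 was at 1757 CPM in high cells, 806 CPM in the 1149 cells with Cxcl13, 725 CPM in the 335 interferon cells and 375 CPM in the 1432 osteogenic cells. Hp was at 4225 CPM in high, 2994 CPM in Cxcl13, 2513 CPM in interferon and 1459 CPM in osteogenic cells. Apod was at 181 CPM in high, 23.3 CPM in Cxcl13, 53.2 CPM in interferon and 22.3 CPM in osteogenic cells. Enpp2 lay closer together, at 159 CPM in high, 137 CPM in Cxcl13, 119 CPM in interferon and 109 CPM in osteogenic cells. No test compares these sets, and cells of each may also carry many C3 UMIs.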

How the data were processed

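The authors deposited raw UMI counts per gene and barcode for each library, made with Cell Ranger 7.0.1 per the file headers and on GRCm39 per the submitters' processing notes; no other upstream step is named there. Sums of these deposited counts per cell set were scaled to CPM, and log2 ratios of CPM carry exact conditional Poisson 95% intervals (SciPy 1.17.1, NumPy 2.4.6, pandas 2.3.3, Python 3.11.15). Shares carry exact binomial intervals. A set with 0 counts was given 3. The ratio and the call were tested on simulated counts that carry counting error and no spread between cells. The members, the 27 gene lists and the tests were chosen with earlier results of these data known. Named genes were the 15 highest and 10 lowest of the old high to low ratio at 100 or more CPM and 100 or more UMIs in the higher set, 8 and 8 for old against adult high cells, 5 and 5 for adult cells, list members nearest the list's direction, the given markers and the genes of the rule; immunoglobulin, haemoglobin, ribosomal, mitochondrial, sex-linked, predicted and free RNA genes were left out, and 2 further genes are not reported here. Thinning drew 5000 UMIs per cell without replacement. Promoters are from RefSeq. Alternatives changed thresholds, depth, filters, centring, the low set and barcodes with other cell types.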

Additional observations from a re-analysis of the deposited data

Results flagged for a closer look

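Cdkn1a, the cell cycle inhibitor p21, pointed in opposite directions in the libraries by at least 2-fold each. It was at 132 CPM in old high and 65.2 CPM in old low cells (log2 ratio 1.02, 0.94 to 1.10), and at 65.9 CPM in adult high and 159 CPM in adult low cells (-1.27, -1.96 to -0.66). In adult high cells 21 UMIs in 9 of 23 cells gave the value. The difference between the libraries was not tested, since there is 1 library per age.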

How the results depend on the processing

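No paired analysis was possible because each age has 1 library. The shares kept their order under every alternative. The old share was 21.8% at 10 or more UMIs, 2.51% at 30 or more, 15.4% with the other states kept, 10.95% without the deepest 10% of CAR cells and 10.2% thinned; the adult share was 0.460% at 10, 0.0311% at 30 and 0.217% with the other states kept. Of genes called in old high against low cells (123), 78 were called with the other states left out of the low set (54 higher, 24 lower), 39 at 100 CPM and 2046 with no CPM filter. For adult high against low cells (358) the counts were 140 at 10 or more UMIs, 1328 at 30 or more (5 cells), 635 in cells of 5000 to 15000 UMIs, 61 at 100 CPM, 10892 with no CPM filter and 584 without the deepest cells. For old against adult high cells (537) they were 303, 1599, 901, 154, 6240 and 902 in the same order, and for low cells (291) 86 at 100 CPM and 4338 with no CPM filter. In the adult comparison more genes were called where fewer of the 23 adult high cells were kept. Cxcl9 turned over: in adult high against low cells it was -1.94 in cells of 5000 to 15000 UMIs and -0.13 without the deepest cells, and in old against adult high cells 1.78 in cells of 5000 to 15000 UMIs, from 15 adult high cells in the depth range. No other gene that was called and followed through the alternatives changed sign. In adult high against low cells only the highest and lowest ranked genes were followed. Enpp2, Cybb, Ccl2, Mgp, Cdkn1a and Zbtb16 were not, so the stability of their adult ratios was not tested. Between old and adult cells only the genes ranked in high cells were followed, which leaves out Mgp, Apod and Serpina3n. Leaving out barcodes with other cell types, added after the data were seen, gave 131 calls in old high against low cells.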

Other observations

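Immediate early genes had medians of opposite sign in the libraries, a difference that was not tested. All 20 immediate early genes past the filter were above 0 in old high against low cells, with a median log2 ratio of 0.25 and 1 called, Fosl2 (1.11). In adult high against low cells 5 of 20 were above 0, with a median of -0.57. Zbtb16, a transcription factor induced by glucocorticoids, was at 233 CPM in old high and 89.9 CPM in old low cells (1.37), and at 44.0 CPM in adult high and 89.4 CPM in adult low cells (-1.02), from 14 adult UMIs. Ddit4 was at 48.7 CPM in old high and 19.6 CPM in old low cells (1.32), and at 56.5 CPM in adult high and 68.2 CPM in adult low cells (-0.27). Of 33 oxidative phosphorylation genes 32 were below 0 in old high against low cells, with a median of -0.14, but 23 of 33 were above 0 when both sets were limited to cells of 5000 to 15000 UMIs. The remaining lists had medians between -0.22 and 0.16 in old high against low cells: 0.10 for antigen presentation and 0.10 for adipogenic genes, 0.16 for heat shock, 0.08 for ER folding, 0.05 for growth arrest, 0.01 for antioxidant genes, -0.02 for Wnt and Notch, -0.13 for matrix enzymes, -0.13 for the IGF system and -0.22 for TGF-beta and BMP. In the TGF-beta and BMP list 12 of 19 genes were below 0 and 2 were called lower, Smad6 (-1.32) and Bmp4 (-1.21). Wnt and Notch had 1 called lower. Heat shock, growth arrest and antioxidant genes each had 1 called higher, Hspb1 (1.21), Cdkn1a (1.02) and Gpx3 (1.33). The glucocorticoid list had a median of 0.32, with 3 of 14 called, among them Lcn2; in adult high against low cells 5 were above 0 and 6 below, with a median of -0.06.

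Cells outside the CAR definition also held 15 or more C3 and Saa3 UMIs, 48 of 5514 in the old library (0.871%, 0.643% to 1.15%) and 4 of 6306 in the adult library (0.0634%, 0.0173% to 0.162%). Of the 48 old cells, 32 had fewer than 10 Cxcl12 UMIs, 10 had no Lepr UMI and 12 had endothelial UMIs at or above the limit. The fibroblast gene Dpt had UMIs in 0 and Pi16 in 1 of them.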
